A study of Mus musculus with 9 samples.

Results

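The genes described here encode the nuclear subunits of oxidative phosphorylation. They were taken as every entry of the count tables whose symbol follows the mouse naming of complex I (Ndufa, Ndufb, Ndufc, Ndufs and Ndufv), complex II (Sdha to Sdhd), complex III (Uqcr genes and Cyc1), complex IV (Cox4 to Cox8 genes with a letter a, b or c) or ATP synthase (Atp5 genes), with named pseudogenes left out. This gave 87 genes of 27179 entries: 39 of complex I, 4 of complex II, 9 of complex III, 18 of complex IV and 17 of complex V. Ndufa4 and its relative Ndufa4l2 were placed with complex IV, where the Ndufa4 protein is now assigned. Of the 87 genes, 80 had enough counts to be tested, and Uqcr11, Ndufa12, Ndufa4l2, Cox8c, Ndufb4c, Cox7b2 and Cox8b were not. Ndufa11b and Ndufs6b met the naming rule although RefSeq gives them a pseudogene type. A few subunit genes with other spellings, such as Cox4i1 and Ndufab1, lie outside it.

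In oxidative phosphorylation, complexes I to IV of the inner mitochondrial membrane pass electrons from NADH and succinate to oxygen and, except for complex II, pump protons. Complex V, the ATP synthase, lets the protons flow back and makes ATP. Most subunits are encoded in the nucleus and imported, while the mitochondrial genome encodes a core set of complexes I, III, IV and V. In mammals many promoters of the nuclear genes bind NRF1 and the ETS family factor GABP, and granulocyte maturation is known for a turn from respiration towards glycolysis.

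RNA was sequenced from AML246, a cultured mouse acute myeloid leukaemia line of C57BL/6 background. All groups lacked p53 (p53-/-), carried shPU.1, a short hairpin against the transcription factor PU.1 (gene Spi1), which drives myeloid differentiation, and grew with the cytokine IL3. Clones 1, 2 and 4 were each started from 1 sorted cell and measured in 3 states. Washed cells had 14 days of doxycycline and then 14 days without it, and were sorted as GFPhigh. Doxycycline cells had 14 days of the drug and were GFPoff. Untreated cells had none and were GFPhigh. Each state thus had 3 libraries, and the clones, all of 1 line, served as replicates. Spi1 itself had 52.0, 40.6 and 23.9 CPM in washed clones 1, 2 and 4, 197, 191 and 156 CPM in doxycycline and 48.1, 46.6 and 23.7 CPM in untreated cells, so that the doxycycline libraries stood above all others. In all triplets of values below, clones follow in the order 1, 2, 4, and CPM are the usual depth-normalized counts, here scaled by TMM factors.

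Libraries held 7408118 to 9803258 counts. In untreated clone 1 an entry without a symbol took 22.0% of the counts, and its TMM factor was 0.736, against 0.916 to 1.18 in the other libraries. Of the leukocyte markers, Ptprc (CD45) was near 0 outside doxycycline, with 0.644, 0.735 and 0.489 CPM in washed, 42.2, 45.1 and 28.0 CPM in doxycycline and 2.02, 1.64 and 0.988 CPM in untreated cells, whereas Cd44 and Spn were at 184 CPM or more in every library. The summed level of 10 mature neutrophil markers was 37.3 to 68.6 CPM in washed, 590 to 2397 CPM in doxycycline and 21.6 to 100.5 CPM in untreated cells. None of the 10 was at 0 in every library, and of the 8 that were tested 6 were higher in doxycycline than in untreated cells. Summed eosinophil markers, mostly Epx, were at 8361 to 10953 CPM in washed, 3409 to 4937 CPM in doxycycline and 8397 to 12463 CPM in untreated cells, but of the 7 tested only Epx was lower in doxycycline than in untreated cells, and Siglecf and Il5ra were higher. These marker levels moved together with the comparisons below, and their part in them was not tested. In bulk RNA, fewer cells of a type and less RNA per cell cannot be told apart.

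How strongly each subunit gene was expressed was compared per length of the gene model, as the mean CPM per kb over all 9 libraries. Atp5b, the catalytic beta subunit of the F1 head of ATP synthase, was highest with 822 CPM per kb. Cox6a1, the widely expressed form of complex IV subunit VIa, followed with 489 CPM per kb, and Uqcrh, the hinge protein of complex III, had 403 CPM per kb. The highest gene of complex I was Ndufb7, an accessory subunit of its membrane arm, with 221 CPM per kb, next to Ndufa2 with 219.9 CPM per kb. In complex II the highest was Sdhc, a membrane anchor, with 100.6 CPM per kb, above Sdhb, the iron-sulphur subunit, with 61.8 CPM per kb and Sdha, the flavoprotein, with 55.9 CPM per kb.

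**Figure D1:**
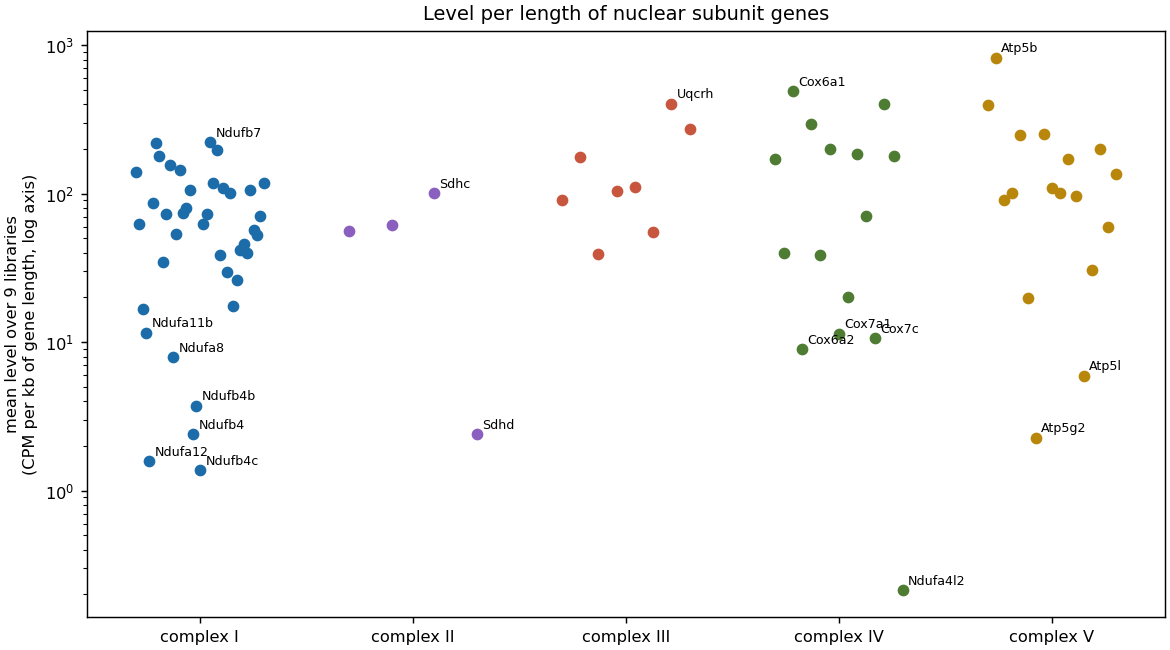
Mean level over 9 libraries of each nuclear subunit gene, in CPM per kb of gene length on a log axis, by complex; each point is 1 gene, the 4 genes at 0 in every library are not drawn, and the highest gene of each complex, Cox6a2 and those under 12 are named. Atp5b is highest at 822 CPM per kb, and Sdhd at 2.40 and Atp5g2 at 2.27 CPM per kb are the lowest drawn of complexes II and V.

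Within a complex these levels were uneven, although subunits of a complex are assembled in fixed numbers. Sdhd, the other membrane anchor of complex II, had 2.40 CPM per kb. Uqcr11, a small subunit of complex III, had 0 counts in every library. Ndufb4 of the membrane arm had 2.39 CPM per kb, Ndufa12 of the NADH-oxidising arm 1.58 CPM per kb, and Atp5l, a membrane subunit of ATP synthase, 5.95 CPM per kb. In all, 14 of the 87 genes were under 10 CPM per kb. Pseudogenes named by the gene symbol with the ending -ps existed in RefSeq for 2 of these 14 and for 9 of the 87. Copies under other names, such as Ndufb4b and Ndufb4c for Ndufb4, were not part of this count. The treatment of reads that match several places is not given in the sources used here, and its part in these low levels was not tested. The spans of 29 of the 87 genes overlapped another RefSeq gene.

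Paralogs of a subunit were expressed at unequal levels. Atp5g1, Atp5g2 and Atp5g3 encode the same mature c subunit of the ATP synthase rotor, and Atp5g3 led with 253 CPM per kb, against 19.7 for Atp5g1 and 2.27 for Atp5g2. Among subunit VIIa genes, Cox7a2l, whose product is also called SCAF1, had 186 CPM per kb. The widely expressed Cox7a2 had 20.0 and the muscle form Cox7a1 had 11.4. For subunit VIb the widely expressed Cox6b1 had 294 CPM per kb and the testis form Cox6b2 had 38.5. Cox8a, the widely expressed form of subunit VIII, had 403 CPM per kb, and its muscle form Cox8b and testis form Cox8c were at 0 counts in all libraries. Cox7b had 70.6 CPM per kb and its testis relative Cox7b2 none. Ndufa4 had 179 CPM per kb and Ndufa4l2, a relative known for its induction by hypoxia, 0.213.

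The first comparison asked which genes differ when the doxycycline cells are set against the untreated ones. Of the 80 subunit genes tested, 2 were lower in doxycycline, Cox6a2 and Ndufb5, and 0 were higher by edgeR's quasi-likelihood test at an adjusted p of 0.05. Of all 12004 genes tested, 4.35% were lower and 6.57% higher, so both counts of subunit genes lay below the background shares. At an unadjusted p under 0.05, 8 subunit genes were lower and 3 higher, against 12.5% and 14.7% of all genes. DESeq2 called 5 lower and 1 higher, against 8.11% and 9.7% of all genes. Only Cox6a2, Cox7c and Cox7a1 had fitted changes of more than 2-fold, against 16.8% of all genes. The 95% interval of the log2 fold change lay within a 2-fold change either way for 62 of the 80 genes (77.5%), and for 40.3% of all genes tested.

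With the clone as a block the same comparison called 9 subunit genes lower and 1 higher, against 11.7% and 13% of all genes. The higher gene was Ndufa1. The lower genes were Ndufa10, Ndufb5, Ndufb10 and Ndufs7 of complex I, Uqcrq of complex III, Cox6a2 and Cox7c of complex IV, and Atp5d and Atp5pb of complex V. Those other than Cox6a2, Ndufb5 and Ndufa10 are named because the block calls them, after their values were seen. The number of calls depended on the libraries in the fit, for all genes as for the subunit genes. Without the block, 0 subunit genes were lower without clone 2, without clone 4 or without the untreated library of clone 1, where 0.422%, 0% and 0.894% of all genes were lower. Without the washed library of clone 1, 5 were lower and 1 higher, against 8.09% and 10.3% of all genes. With the block, 4 were lower without the untreated library of clone 1 (8.98% of all genes) and 16 were lower and 3 higher without the washed one (18.5% and 20.1%). Without clone 1 the block gave 15 lower and 1 higher (16.2% and 17.7%), and without clone 2 or without clone 4 it gave none, where 1.98% and 1.17% of all genes were lower.

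Cox6a2 (Entrez gene 12862, chromosome 7, 128205435 to 128206366 on mm10) encodes the heart and skeletal muscle form of complex IV subunit VIa. It had 0.920, 13.0 and 8.32 CPM in washed clones, 0.353, 0.662 and 0.194 CPM in doxycycline and 8.99, 12.3 and 8.28 CPM in untreated clones. These levels came from 10, 106 and 68 counts in washed, 4, 5 and 2 in doxycycline and 49, 98 and 67 in untreated cells. All 3 doxycycline libraries were below every other library, and washed clone 1 stayed close to them. Doxycycline over untreated, the log2 fold change was -4.62 ± 0.91 (SE, adjusted p = 0.0142 by edgeR's quasi-likelihood test), or an adjusted p of 0.00509 when clones were blocked. Within clones the doxycycline level was 0.0393, 0.0536 and 0.0234 of the untreated one, with exact 95% intervals for counting error of 0.0103 to 0.107, 0.0170 to 0.129 and 0.00278 to 0.0880. The call was lost without clone 2 (adjusted p = 0.0897), without clone 4 (adjusted p = 0.264), without the untreated library of clone 1 (adjusted p = 0.0501) and with limma voom (adjusted p = 0.0595), while the log2 fold change stayed between -4.90 and -4.41 in these edgeR fits. The span of Itgad, an integrin gene, overlaps that of Cox6a2, and Itgad had 3, 1 and 2 counts in washed, 8, 4 and 5 in doxycycline and 1, 0 and 0 in untreated clones.

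The widely expressed partner Cox6a1 did not share this pattern. It had 302, 301 and 247 CPM in washed, 289, 214 and 216 CPM in doxycycline and 267, 267 and 244 CPM in untreated clones. The groups overlapped, and doxycycline over untreated the log2 fold change was -0.11 ± 0.18 (SE, adjusted p = 0.734, 95% interval -0.52 to 0.30). Per kb of length Cox6a1 averaged 489 CPM and Cox6a2 8.94 CPM over the 9 libraries, so the muscle form was a minor part of subunit VIa RNA. Protein was not measured here. Cox7a1, the muscle form of subunit VIIa, was low in washed clone 1 as well, with 0.552, 7.35 and 6.12 CPM in washed, 1.06, 4.63 and 1.94 CPM in doxycycline and 5.50, 6.67 and 3.83 CPM in untreated clones. Its doxycycline and untreated libraries overlapped (log2 fold change -1.09 ± 0.81 SE, adjusted p = 0.430).

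**Figure D2:**
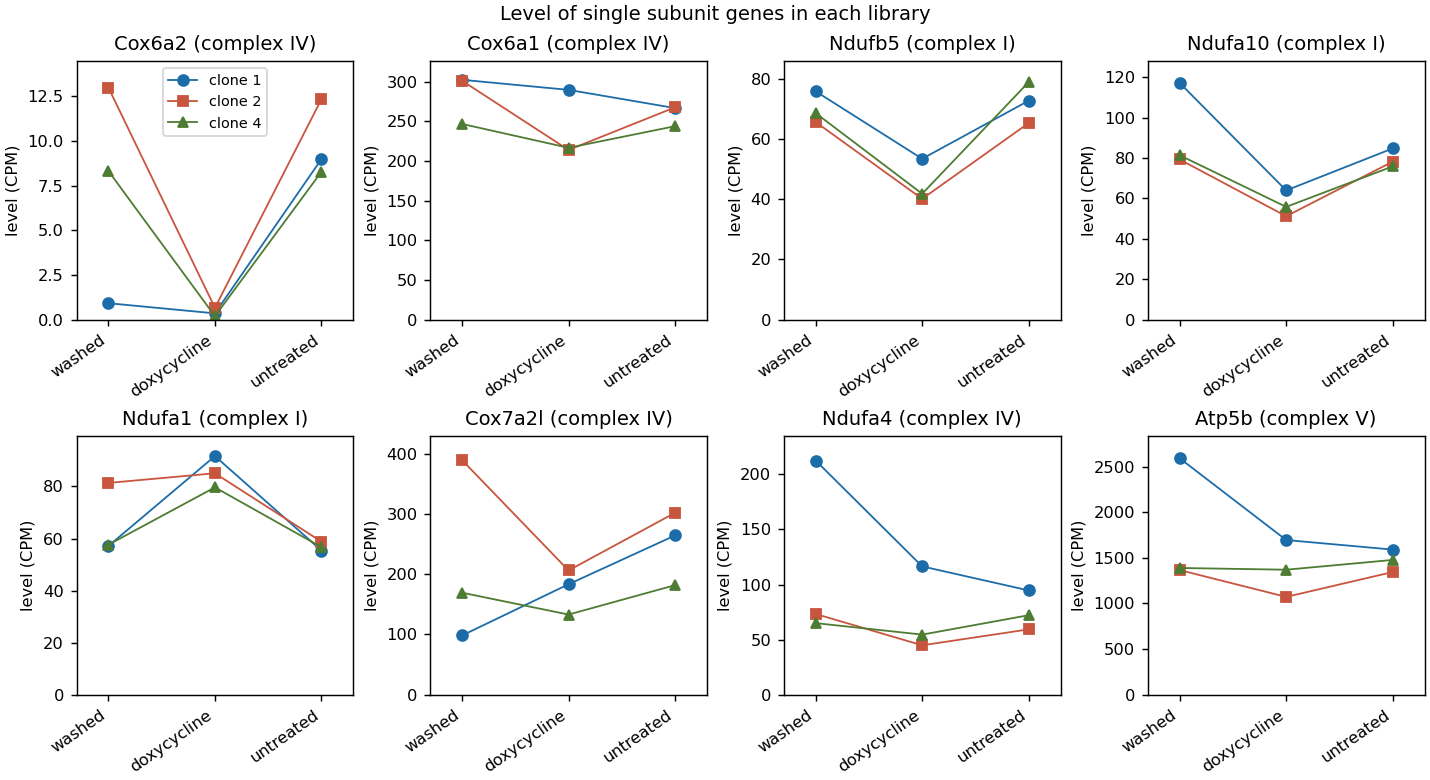
Level in CPM (linear axes from 0) of 8 nuclear subunit genes in each library, with washed, doxycycline and untreated cells from left to right and a line joining the 3 libraries of a clone. Cox6a2 lies below 1 CPM in all doxycycline libraries and in washed clone 1, Ndufb5 and Ndufa10 are lowest in doxycycline in each clone, and Ndufa4 and Atp5b are highest in washed clone 1.

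Ndufb5 (Entrez gene 66046, chromosome 3, 32737057 to 32751559) encodes an accessory subunit of the proton-pumping membrane arm of complex I. It had 75.7, 65.6 and 68.5 CPM in washed, 53.4, 40.1 and 41.8 CPM in doxycycline and 72.6, 65.2 and 78.8 CPM in untreated clones. Every doxycycline library was below every library of the other groups. Doxycycline over untreated, the log2 fold change was -0.68 ± 0.17 (SE, adjusted p = 0.0336 by edgeR's quasi-likelihood test). Whether this call held depended on the libraries left out. Dropping clone 2 ended it, at -0.68 (adjusted p = 0.146). Dropping clone 4 ended it as well, at -0.57 (adjusted p = 0.407, where 0 genes of all tested were called). So did dropping the untreated library of clone 1, at -0.68 (adjusted p = 0.114). The call held with all of clone 1 dropped, at -0.82 (adjusted p = 0.0473). It also held with only the washed library of that clone dropped, at -0.68 (adjusted p = 0.0206). Scaled by library size alone the log2 fold change was -0.44 (adjusted p = 0.354).

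Ndufa10 (Entrez gene 67273, chromosome 1, 92439486 to 92473825) encodes another accessory subunit of complex I, related to nucleoside kinases. It had 117, 79.3 and 81.4 CPM in washed, 64.0, 51.2 and 55.8 CPM in doxycycline and 84.7, 78.2 and 75.8 CPM in untreated clones. The doxycycline libraries again lay below all others, with washed clone 1 highest. Doxycycline over untreated, the log2 fold change was -0.48 ± 0.19 (SE, adjusted p = 0.137, or 0.0350 with the clone as a block).

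Ndufa1, an X-linked accessory subunit of complex I that is needed for assembly of the membrane arm, went the other way. Its values were 57.2, 81.4 and 57.6 CPM in washed, 91.7, 85.1 and 79.7 CPM in doxycycline and 55.4, 58.8 and 56.7 CPM in untreated clones. Doxycycline and untreated libraries did not overlap, and washed clone 2 lay within the doxycycline range. The log2 fold change was 0.58 ± 0.17 (SE, adjusted p = 0.0627, or 0.0269 with the clone as a block). Cox7c, a small subunit of complex IV, had 4.51, 6.62 and 4.77 CPM in washed, 3.35, 2.51 and 1.94 CPM in doxycycline and 5.50, 8.69 and 5.06 CPM in untreated clones (doxycycline over untreated, log2 fold change -1.30 ± 0.36 SE, adjusted p = 0.0518, or 0.0221 with the clone as a block). Atp5pb, the b subunit of the peripheral stalk of ATP synthase, had 168, 237 and 236 CPM in washed, 160, 150 and 145 CPM in doxycycline and 231, 208 and 248 CPM in untreated clones (adjusted p = 0.0653, or 0.0381 with the clone as a block). For both genes the doxycycline libraries were the lowest of all.

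Counted without a test, 15 of the 80 genes had all doxycycline libraries below all untreated ones and 5 had them above, against 18.5% and 20.4% of all genes. Those below were Ndufa7, Ndufa10, Ndufb10, Ndufb5, Ndufc1 and Ndufs7 of complex I, Uqcrc2, Uqcrh and Uqcrq of complex III, Cox6a2 and Cox7c of complex IV, and Atp5d, Atp5l, Atp5o and Atp5pb of complex V. Those above were Ndufa1, Ndufa5, Ndufa11 and the pseudogene Ndufa11b of complex I and Cox5a of complex IV. Of the 80 genes, 34 were lower and 9 higher in doxycycline in all 3 clones, against 31.8% and 32.1% of all genes. The 15 of 80 lay near the background share and the 34 of 80 above it, and both counts of higher genes lay below theirs.

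**Figure D3:**
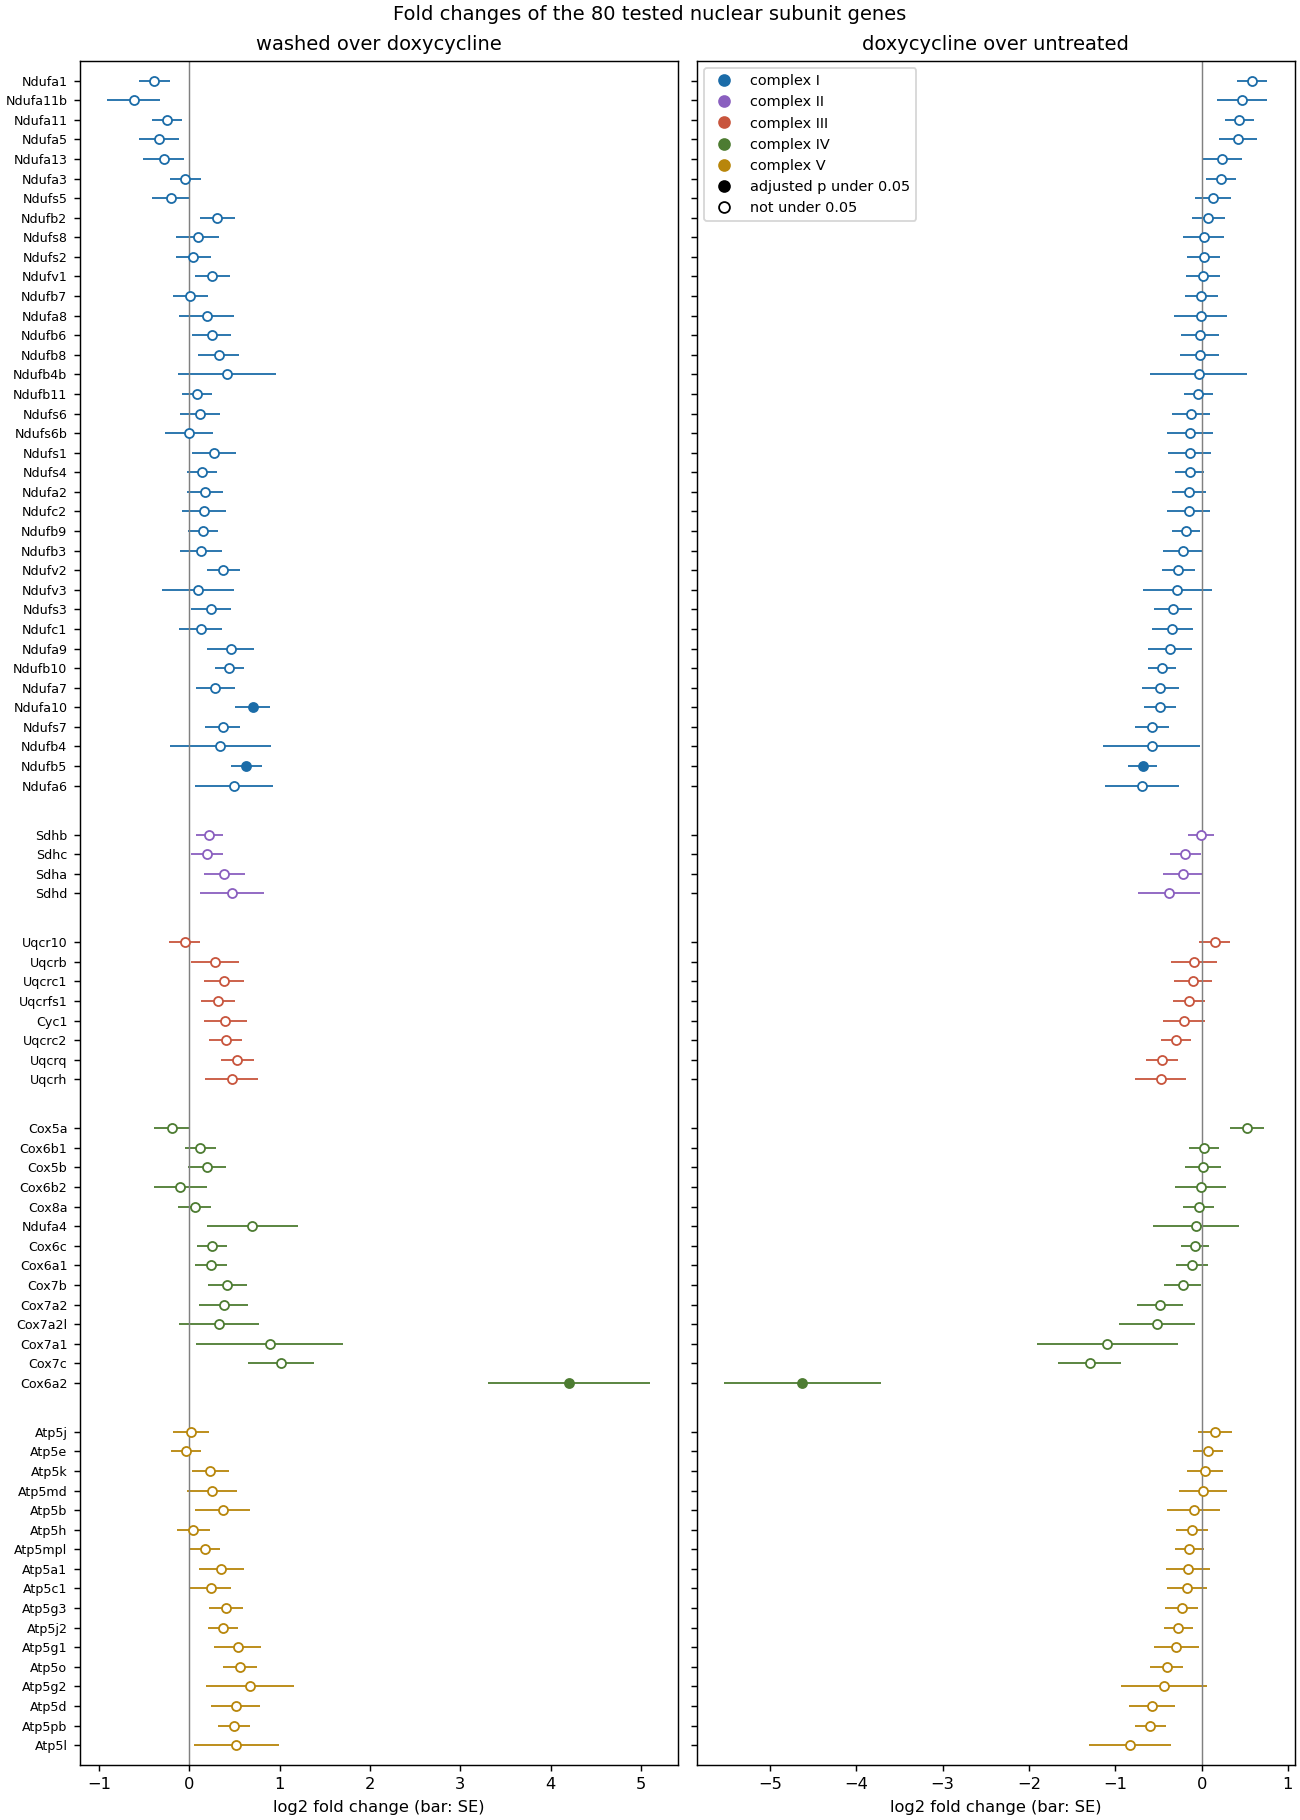
Log2 fold changes with SE of the 80 tested nuclear subunit genes, washed over doxycycline on the left and doxycycline over untreated on the right, ordered by complex and by the right panel. Filled points passed an adjusted p of 0.05: Cox6a2, Ndufb5 and Ndufa10 on the left and Cox6a2 and Ndufb5 on the right; both panels use the same doxycycline libraries.

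Over the 80 genes the median log2 fold change of doxycycline over untreated was -0.14, against 0.00 over all genes tested. Scaled by library size alone it was 0.10 against 0.23 for all genes, so its sign turned with this scaling. With RLE factors it was -0.16 against -0.01 for all genes. Without mitochondrial genes and entries with no symbol it was -0.15 against 0.00. In each of these runs it lay below the median of all genes. By complex the TMM-scaled medians were -0.13 for complex I, -0.20 for complex II, -0.17 for complex III, -0.09 for complex IV and -0.17 for complex V. Clones differed in this. The median within-clone log2 ratio was 0.02 in clone 1, -0.32 in clone 2 and -0.22 in clone 4, and 39, 65 and 63 of the 80 genes were lower in doxycycline in these clones. A test of whether the response differed between clones called 0 of the 80 genes, with 0 at an unadjusted p under 0.05, against 0% and 3.39% of all genes. It took the untreated and washed libraries of a clone as repeats. Over all genes these 2 libraries differed by a median absolute log2 ratio of 0.49 in clone 1, 0.17 in clone 2 and 0.11 in clone 4. As it called 0% of all genes, likeness between clones cannot be read from it.

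Summed levels of each complex are weighted to its abundant genes. Complex I summed to 2493, 2719 and 2106 CPM in washed, 2378, 2251 and 1913 CPM in doxycycline and 2511, 2470 and 2186 CPM in untreated clones. Complex II summed to 440.2, 384 and 322 CPM in washed, 361, 279 and 295 CPM in doxycycline and 350.0, 370.5 and 329.6 CPM in untreated clones. Complex III summed to 1225, 1212 and 964 CPM in washed, 967, 830 and 811 CPM in doxycycline and 1071, 1056 and 1000.1 CPM in untreated clones. In complex III all doxycycline libraries lay below all untreated ones, while in complexes I and II the groups overlapped.

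Complex IV summed to 1434, 1591 and 1162 CPM in washed, 1393, 1142 and 1073 CPM in doxycycline and 1346, 1376 and 1168 CPM in untreated clones. Complex V summed to 5257, 3684 and 3337 CPM in washed, 3820.1, 2749 and 3100.3 CPM in doxycycline and 3797, 3483 and 3517 CPM in untreated clones. In clone 1 the doxycycline sums of complexes II, IV and V were above the untreated ones. The within-clone ratio of doxycycline over untreated averaged 0.911 for complex I, 0.893 for complex II, 0.833 for complex III, 0.928 for complex IV and 0.892 for complex V, with SDs over 3 clones of 0.0358, 0.140, 0.0615, 0.103 and 0.109; scaled by library size alone the same means were 1.10, 1.11, 1.02, 1.14 and 1.10, above 1. With that scaling the ratios of clone 1, whose untreated library has the low TMM factor, for complexes I to V were 1.49, 1.62, 1.42, 1.63 and 1.58, those of clone 2 were 0.841, 0.694, 0.725, 0.765 and 0.728, and those of clone 4 were 0.978, 1.00, 0.906, 1.03 and 0.985. No test was made of these sums.

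**Figure D4:**
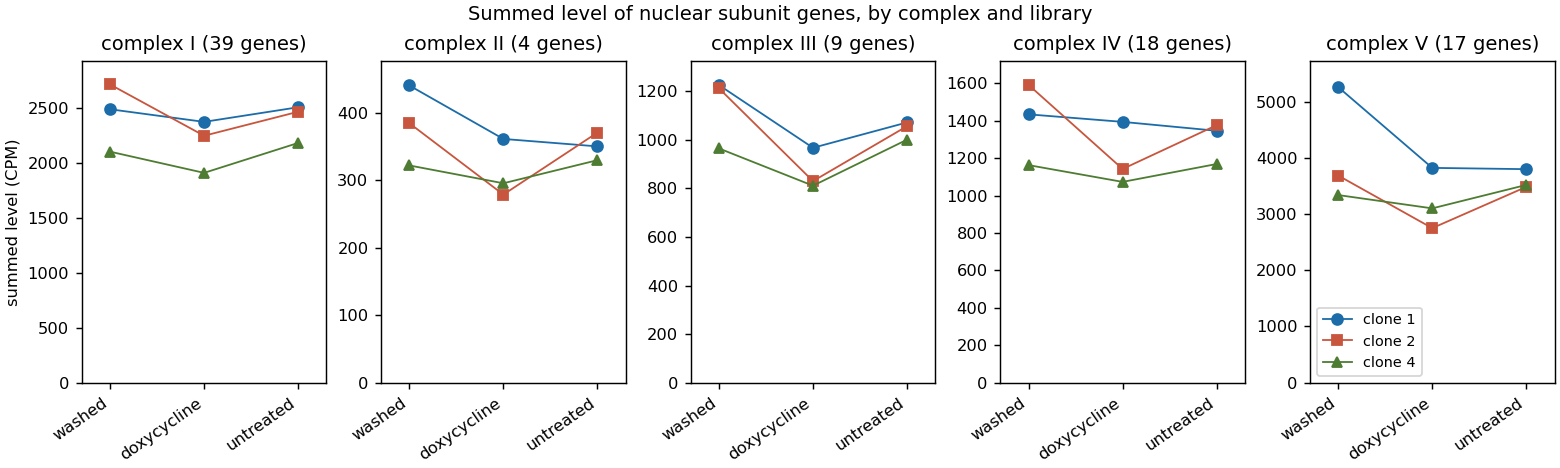
Summed TMM-scaled level in CPM (axes from 0) of the nuclear subunit genes of each complex, for washed, doxycycline and untreated cells from left to right, with a line for each clone. In clones 2 and 4 doxycycline is lowest for all 5 complexes (scaled by library size alone this holds in clone 2, and in clone 4 for complex III), and washed clone 1 stands out in complex V at 5257 CPM.

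The second comparison, of washed with doxycycline cells, asked what changes when the drug is taken away, and it uses the same doxycycline libraries as the first. Of the 80 genes, 3 were higher in washed cells and 0 lower, against 3.64% and 6.02% of all genes tested. The 3 were Cox6a2 (log2 fold change 4.20 ± 0.90 SE, adjusted p = 0.0223), Ndufb5 (0.63 ± 0.17 SE, adjusted p = 0.0457) and Ndufa10 (0.70 ± 0.19 SE, adjusted p = 0.0488), by edgeR's quasi-likelihood test. At an unadjusted p under 0.05, 10 were higher and 0 lower, against 12.4% and 13.6% of all genes, and DESeq2 called 5 higher and 0 lower, against 7.45% and 8.94% of all genes. With the clone as a block 6 were higher, the same 3 and Atp5d, Atp5o and Uqcrq, and 0 were lower, against 10.4% and 12.4% of all genes. All washed libraries were above all doxycycline ones for 10 genes and below them for 1, against 11.8% and 14.5% of all genes. Within clones the ratios of Cox6a2, washed over doxycycline, were 2.61, 19.6 and 42.9. Their exact 95% intervals for counting error were 0.752 to 11.4, 8.15 to 61.7 and 11.4 to 362, and that of clone 1 included no change.

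In this comparison too the number of calls moved with the libraries in the fit. Only Cox6a2 was higher without clone 1, without the untreated library of clone 1 and with scaling by library size alone, where 3.29%, 1.95% and 2.02% of all genes were higher. None was called without clone 2, without clone 4 or with limma voom (0.174%, 0.00829% and 2.96% of all genes higher). With the 2 groups fitted alone none was called of 78 tested (0.799%), and Cox6a2 did not pass the count filter of that fit. Without the washed library of clone 1, Cox6a2 and Atp5pb were higher (6.53%). With the block, 9 were higher without the untreated library of clone 1 (13.8% of all genes), 15 without the washed one (14.8%), 20 without clone 1 (17%), and 0 without clone 2 (1.2%) or without clone 4 (0.994%). The median log2 fold change of the 80 genes was 0.25, against 0.04 for all genes, and 68 of the 80 fitted values were above 0. All 5 complexes had a summed level in each washed library above that of the doxycycline library of the same clone, by ratios of 1.03 to 1.46; scaled by library size alone this held in clones 1 and 2, while in clone 4 the ratios for complexes I to V were 0.963, 0.953, 1.04, 0.948 and 0.941.

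Washed set against untreated cells, 0 of the 80 genes were called higher or lower, against 0% of all genes by either sign. DESeq2 also called 0, and 0 subunit genes had an unadjusted p under 0.05, against 0.158% of all genes in each direction. All washed libraries lay above all untreated ones for 5 genes and below them for 0, against 1.31% and 1.05% of all genes. In all 3 clones 16 genes were higher and 5 lower, against 9.21% and 8.89%, and none had a fitted change of more than 2-fold, against 1.36%. The median log2 fold change was 0.09, against 0.02 for all genes. For 69 of the 80 genes (86.2%) the 95% interval lay within a 2-fold change either way, and for 60.9% of all genes. In clone 1 the washed level of Cox6a2 was 0.102 of the untreated one (exact 95% interval for counting error 0.0462 to 0.205), against ratios of 1.05 (0.792 to 1.40) in clone 2 and 1.01 (0.707 to 1.43) in clone 4.

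The washed libraries of clones 1 and 2 were often the highest for the subunit genes. Washed clone 1 was the highest of the 9 libraries for 29 of the 80 genes (36.2%, against 24.1% of all genes), and washed clone 2 for 25 (31.2%, against 14.3%). Washed clone 1 was also the lowest library for 8 genes (10%, against 23.2% of all genes), and washed clone 2 for 0 (against 13.7%). The lowest library was doxycycline clone 2 for 28 genes (35%, against 19.6% of all genes) and doxycycline clone 4 for 20 (25%, against 8.43%). Atp5b had 2590, 1366 and 1389 CPM in washed, 1695, 1072 and 1370 CPM in doxycycline and 1590, 1344 and 1477 CPM in untreated clones. Atp5a1, the alpha subunit of the same F1 head, had 1463, 958 and 845 CPM in washed, 1020, 727 and 810 CPM in doxycycline and 1022, 933 and 899 CPM in untreated clones. For both, washed clone 1 was the highest library by a wide margin. Atp5a1 was named, and the 2 genes were set aside, after their levels were seen. Without them complex V summed to 1204, 1360 and 1103 CPM in washed, 1105, 950 and 921 CPM in doxycycline and 1185, 1206 and 1142 CPM in untreated clones. Washed clone 1 then lay between washed clones 2 and 4, which follows in part from that choice of genes.

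Several subunit genes separated washed clone 1 from washed clone 2 in the opposite sense. Cox7a2l had 98.3, 389 and 169 CPM in washed, 183, 206 and 133 CPM in doxycycline and 264, 302 and 182 CPM in untreated clones. Uqcrh had 153, 362 and 213 CPM in washed, 163, 204 and 158 CPM in doxycycline and 231, 282 and 216 CPM in untreated clones. Both were highest in washed clone 2 and lowest in washed clone 1. Ndufv3, a small subunit of the NADH-binding module, and Ndufa6, of the same arm, had 112 and 21.9 CPM in washed clone 1 against 296 and 73.5 CPM in washed clone 2. Ndufa4 was the reverse, with 212 CPM in washed clone 1 and 44.9 to 116 CPM in all other libraries. These genes were picked for their spread after it was seen. The summed level of 10 mast cell and basophil markers was 917, 3726 and 2990 CPM in washed, 445, 2602 and 1213 CPM in doxycycline and 2673, 3469 and 2885 CPM in untreated clones. This sum was lowest in doxycycline clone 1, while Cox7a2l and Uqcrh were lowest in washed clone 1. The part of these markers in the levels of the subunit genes was not tested. Over all 9 libraries the SD of log2 CPM had a median of 0.27 for the 80 genes and 0.43 for all genes tested.

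In complex II no member passed the test in any comparison, with or without the block on all libraries. Sdha had 232, 171 and 139 CPM in washed, 169, 118 and 128 CPM in doxycycline and 173, 168 and 141 CPM in untreated clones. Sdhb had 71.6, 79.7 and 68.8 CPM in washed, 59.4, 69.1 and 60.1 CPM in doxycycline and 57.1, 66.2 and 66.0 CPM in untreated clones. The groups overlapped for both genes between doxycycline and untreated cells. Sdhc had 133, 130 and 111 CPM in washed, 130, 89.4 and 106 CPM in doxycycline and 118, 133 and 119 CPM in untreated clones, and Sdhd had 1.84 to 3.95 CPM in all 9 libraries. Doxycycline over untreated, the adjusted p-values of the 4 genes were 0.541 or higher.

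By the same fit, without the block and with all libraries, the c ring genes and the paralogs of complex IV held no call besides Cox6a2. Blocked fits without a clone 1 library or without clone 1 added Atp5g3, Cox7a1, Cox7a2l or Ndufa4. Atp5g3 had 221, 179 and 186 CPM in washed, 171, 119 and 151 CPM in doxycycline and 176, 153 and 190 CPM in untreated clones. Atp5g1 ranged from 11.5 to 26.8 CPM and Atp5g2 from 0.618 to 2.45 CPM over the 9 libraries. Cox6b2 ranged from 15.4 to 31.5 CPM and Cox7a2 from 10.1 to 21.8 CPM. Cox6b1, at 128 to 176 CPM, and Cox8a, at 196 to 270 CPM, were the abundant forms of their subunits. Ndufb7 had 94.9 to 152 CPM, and Cox7b 50.9 to 106 CPM. Of the genes not tested, Ndufa12 had 0.388 to 1.72 CPM, Ndufb4c 0.132 to 1.10 CPM and Ndufa4l2 at most 0.858 CPM, with 0 in all doxycycline libraries.

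The 13 subunits encoded in the mitochondrial genome varied far more than the nuclear ones. They summed to 26871, 141613 and 214863 CPM in washed, 22323, 196423 and 65179 CPM in doxycycline and 149179, 150877 and 193798 CPM in untreated clones. The lowest sums were those of clone 1 in doxycycline and after washout, and the highest that of washed clone 4. Highest over lowest, the mitochondrial sum spanned 9.63-fold, against 1.51-fold for the 87 nuclear genes. None of the 13 was called in any comparison, with 0 at an unadjusted p under 0.05 for doxycycline over untreated and for washed over doxycycline and 0 by DESeq2. In clone 1 the doxycycline sum was 0.150 of the untreated one, in clone 2 it was 1.30 and in clone 4 it was 0.336.

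**Figure D5:**
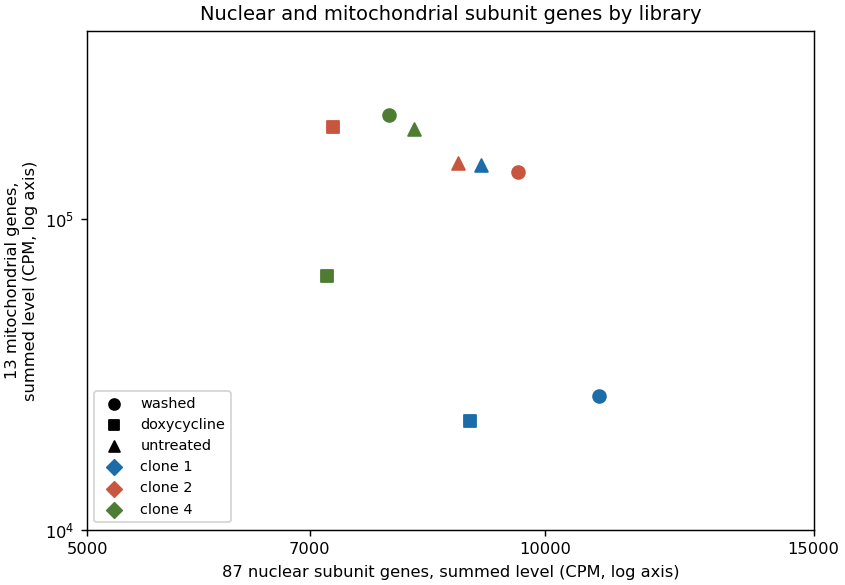
Summed level of the 87 nuclear subunit genes (x, CPM, log axis) and of the 13 mitochondrially encoded ones (y, CPM, log axis) in each library; symbols mark washed, doxycycline and untreated cells and colours mark clones. The mitochondrial sum spans 9.63-fold, with washed and doxycycline clone 1 lowest, and the nuclear sum spans 1.51-fold.

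Genes that build or accompany the complexes were counted from lists chosen for this tissue. Of 18 complex I assembly factors tested, 0 were called in doxycycline against untreated cells by the fit without the block and 4 were lower with it (11.7% of all genes), and their median log2 fold change was -0.52, against 0.00 for all genes. In washed against doxycycline cells 1 was higher, Dmac1, a membrane-arm assembly factor, and 6 with the block, against 3.64% and 10.4% of all genes. Dmac1 had 28.1, 31.5 and 25.1 CPM in washed, 18.5, 17.3 and 16.9 CPM in doxycycline and 29.4, 25.9 and 24.7 CPM in untreated clones (washed over doxycycline, adjusted p = 0.0424). Its doxycycline libraries were the lowest of all. None of 13 assembly factors of complexes II, III and V, 23 of complex IV or 19 genes of the TCA cycle was called in either comparison without the block. With it, 2 TCA cycle genes were lower in doxycycline and 6 higher after washout, against 11.7% and 10.4% of all genes. Of the assembly factors of complexes II, III and V, 1 was then lower in doxycycline (11.7% of all genes). After washout 2 were higher and 1 lower (10.4% and 12.4%). Of those of complex IV, 1 was lower and 1 higher in doxycycline (11.7% and 13%) and 0 were called after washout. None of the 5 tested subunit genes outside the naming rule was called in either comparison, with or without the block.

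Among 19 tested regulators of mitochondrial biogenesis, 2 were lower in doxycycline and 0 higher, against 4.35% and 6.57% of all genes. With the block 3 were lower, against 11.7%. Ppargc1b, the coactivator PGC-1beta, had 0.552, 2.57 and 4.65 CPM in washed clones, 0 counts in all doxycycline libraries and 2.75, 2.27 and 2.96 CPM in untreated clones. Its level was at least 25.8-fold lower in doxycycline than in untreated cells, taking a floor of 3 counts over the doxycycline group (adjusted p = 0.0143). Twnk, the helicase of mitochondrial DNA, had 37.2, 29.4 and 32.2 CPM in washed, 19.0, 15.2 and 20.6 CPM in doxycycline and 43.3, 25.6 and 34.5 CPM in untreated clones (adjusted p = 0.0382). Both genes were lowest in doxycycline in every clone. Coq10b, a coenzyme Q binding protein, was the 1 gene of 13 for coenzyme Q that was called higher in doxycycline than in untreated cells (adjusted p = 0.0170). It had 11.3, 6.98 and 10.4 CPM in washed, 18.4, 14.3 and 21.6 CPM in doxycycline and 5.32, 6.30 and 8.28 CPM in untreated clones. The fitted values of 11 of the 13 were below 0, with a median of -0.38, against 0.00 for all genes. The block called 4 lower and 1 higher, against 11.7% and 13% of all genes.

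Of 19 mitochondrial membrane and import genes 2 were called lower and 0 higher in doxycycline, against 4.35% and 6.57% of all genes. The block called 4 lower in doxycycline and 6 higher after washout, against 11.7% and 10.4%. Phb2, a prohibitin of the inner membrane, had 258, 205 and 233 CPM in washed, 135, 101 and 147 CPM in doxycycline and 203, 198 and 261 CPM in untreated clones. It was lower in doxycycline than in untreated cells (adjusted p = 0.0379) and higher after washout (adjusted p = 0.0303). Hspa9, the import motor chaperone mortalin, had 648, 499.6 and 429 CPM in washed, 301, 195 and 317 CPM in doxycycline and 626, 531 and 469 CPM in untreated clones. For both genes the doxycycline libraries were the lowest of all. Hspa9 passed in both comparisons (adjusted p = 0.0342 for doxycycline over untreated and 0.0428 for washed over doxycycline). No list was tested as a set.

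The promoters of the subunit genes were read for the letters of 4 motifs on both strands, in windows from 250 bases before to 50 bases after the start in RefSeq (GRCm38.p6). A window was found for 69 of the 87 genes, Cox6a2 not among them. The NRF1 core GCGCATG stood in 13 (18.8%, against 4.41% of 27025 genes with a window), and the GABP and ETS letters CCGGAAG in 17 (24.6%, against 9.93%). The YY1 letters AAGATGG stood in 11 (15.9%, against 7.28%) and the PU.1-type letters GAGGAAG in 6 (8.7%, against 15.4%). The NRF1 letters can overlap themselves on the other strand. The 6 with PU.1-type letters were Atp5g1, Atp5j, Ndufa1, Ndufa5, Ndufs4 and Sdhd. A match describes letters only. The windows of the 2 complex I genes that changed together, Ndufb5 and Ndufa10, are shown with those of Ndufa1, which moved the other way with the block, and Cox6a1, which did not pass the test, each 5′ to 3′ on the strand of the gene with motif letters in capitals. They are chr3:32736813-32737112 (plus strand), chr1:92473709-92474008 (minus), chrX:37191189-37191488 (minus) and chr5:115348909-115349208 (minus).
Ndufb5: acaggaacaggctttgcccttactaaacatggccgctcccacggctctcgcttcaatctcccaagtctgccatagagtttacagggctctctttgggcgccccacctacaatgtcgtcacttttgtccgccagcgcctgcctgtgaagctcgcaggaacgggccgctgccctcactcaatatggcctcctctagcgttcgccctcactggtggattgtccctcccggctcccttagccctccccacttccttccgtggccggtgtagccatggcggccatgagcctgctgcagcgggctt
Ndufa10: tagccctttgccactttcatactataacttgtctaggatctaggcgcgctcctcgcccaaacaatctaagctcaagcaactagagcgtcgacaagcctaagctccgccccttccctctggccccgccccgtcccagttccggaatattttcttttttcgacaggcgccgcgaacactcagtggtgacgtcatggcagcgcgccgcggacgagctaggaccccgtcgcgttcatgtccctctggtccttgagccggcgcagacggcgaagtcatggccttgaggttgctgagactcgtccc
Ndufa1: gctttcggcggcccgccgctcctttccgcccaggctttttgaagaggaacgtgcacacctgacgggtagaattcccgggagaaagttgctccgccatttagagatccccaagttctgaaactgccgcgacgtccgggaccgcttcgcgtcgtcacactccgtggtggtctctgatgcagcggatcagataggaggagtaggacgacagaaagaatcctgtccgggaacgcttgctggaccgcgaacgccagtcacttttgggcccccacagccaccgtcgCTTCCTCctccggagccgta
Cox6a1: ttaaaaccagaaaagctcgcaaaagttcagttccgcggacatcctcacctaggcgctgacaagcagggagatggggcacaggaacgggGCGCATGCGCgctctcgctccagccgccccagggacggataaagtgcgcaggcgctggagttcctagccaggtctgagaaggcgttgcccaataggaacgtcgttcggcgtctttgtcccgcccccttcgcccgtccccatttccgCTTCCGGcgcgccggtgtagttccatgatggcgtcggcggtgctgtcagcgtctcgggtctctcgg
The windows of Ndufb5 and Ndufa10 held none of the 4 exact strings of letters, and near variants of these were not searched. That of Ndufa1 held the PU.1-type letters on the reverse strand. That of Cox6a1 held the NRF1 core on both strands, overlapping, and the GABP and ETS letters on the reverse strand.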

How the data were processed

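The authors deposited 1 table of unnormalized whole counts by Entrez gene for each library, per the file headers. Tools named in the submitters' processing notes are featureCounts, CASAVA 1.8.2, limma 3.22.0 and edgeR 3.8.2, with build mm10. Aligner, strand setting and handling of multiply matching reads: not given in the sources used here. Symbols, coordinates and sequences came from RefSeq tables of GRCm38.p6, the mm10 build, which matched 25275 of 27179 entries.

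filterByExpr kept 12004 genes for testing, and TMM factors scaled the libraries. edgeR 4.0.16 (R 4.3.3) fitted group means to all 9 libraries by quasi-likelihood, with Benjamini-Hochberg adjustment over the 12004 genes at 0.05. SE is the log2 fold change over the square root of F. Clone responses were tested as the interaction of clone with hairpin state, with doxycycline set against untreated and washed libraries together. Alternatives included RLE factors, library size alone, other filters, DESeq2 1.42.0, limma voom 3.58.1, the 2 groups alone, left-out clones or libraries, and clone as a block. Added after seeing the data was the block with each clone left out.

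The clone number pairs libraries, since 1 clone is 1 cell line. Deviations from group means correlated at 0.29 to 0.68 in the 9 same-clone pairs, against -0.692 to 0.323 in the 18 others. No 2 libraries agreed within sampling noise. Replicates are clones of 1 line, and p-values measure only their spread. The drug, the GFP gate and the hairpin state cannot be told apart.

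The members, lists and motifs were chosen with earlier results of these data known. Named were all of complex II, every called member, the highest gene per kb of each complex, the paralog families, the untested members, Spi1 and up to 4 called genes per list; others are marked. One gene of the list of subunits outside the rule proved to be a member under another name and was dropped from it. The pipeline was tested on simulated counts. Total counts of 7408118 to 9803258 put the level of 3 counts at 0.265 to 0.550 CPM, and intervals on counts cover counting error only. Figures were drawn with matplotlib 3.10.9.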

Additional observations from a re-analysis of the deposited data

How the results depend on the processing

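No called fold change turned its sign under any alternative run, but counts of called genes moved. In doxycycline against untreated cells the main fit gave 2 lower and 0 higher, against 4.35% and 6.57% of all genes. Library size alone, no filter and limma voom each gave 1 lower, against 2.14%, 2.55% and 3.43% of all genes. DESeq2 gave 5 lower and 1 higher (8.11% and 9.7%). The fit without the washed library of clone 1 gave the same counts (8.09% and 10.3%). With the 2 groups alone 4 were lower and 1 higher (7.35% and 10%). Without the untreated library of clone 1, 0 were lower (0.894%). Leaving out each clone gave 0 to 2 lower. In washed against doxycycline cells the main fit gave 3 higher, against 3.64% of all genes. Library size alone, no filter and leaving out the untreated library of clone 1 each gave 1 higher (2.02%, 2.13% and 1.95%). DESeq2 gave 5 higher (7.45%). None was higher with limma voom (2.96%) or with the 2 groups alone (0.799%), where Cox6a2 was not tested. Leaving out each clone gave 0 to 1.

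With the clone as a replicate block the pairing gave 9 lower and 1 higher in doxycycline, against 11.7% and 13% of all genes. After washout 6 were higher, against 10.4%. The block without the untreated library of clone 1 gave 4 lower in doxycycline and 9 higher after washout (8.98% and 13.8%). The block without the washed library of clone 1 gave 16 lower, 3 higher and 15 higher after washout (18.5%, 20.1% and 14.8%). The block with each clone left out gave 0 to 15 lower, 0 to 1 higher and 0 to 20 higher after washout. Counts over all genes moved with them. Lower in doxycycline were 1.17% to 16.2% of all genes over the blocked fits with a clone left out, and 0% to 2.87% over the unblocked ones. Higher in doxycycline were 1.81% to 17.7% and 0% to 5.09%. Higher after washout were 0.994% to 17% and 0.00829% to 3.29%. Causes were not tested.

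Scaling by library size alone moved the mean within-clone ratios of doxycycline over untreated to 1.10, 1.11, 1.02, 1.14 and 1.10 for complexes I to V, above 1 where TMM gave values below it, and those of washed over untreated to 1.21, 1.33, 1.30, 1.27 and 1.40, against 1.02, 1.09, 1.09, 1.07 and 1.13 with TMM. With it the log2 fold change of the median gene was 0.23 in doxycycline over untreated, against 0.00 with TMM, and 0.22 in washed over untreated, against 0.02 with TMM. Depth limits the lowest genes: 3 counts correspond to 0.265 to 0.550 CPM, near the doxycycline levels of Cox6a2.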
